A study of Rattus norvegicus with 6 samples.

Results

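Protocadherins are the largest subgroup of the cadherin adhesion proteins, and 30 differentially methylated regions (DMRs) of their genes were described in hippocampal brain microvascular endothelial cells (BMECs) of stressed and unstressed rats. A region was taken when the annotation table assigned it to a gene whose symbol begins with Pcdh, and each region was counted once by its chromosome, start, end and cytosine context. This gave 30 of 24862 annotated regions, in 8 genes. The clustered families (Pcdha, Pcdhb and Pcdhg), which lie side by side on 1 locus of chromosome 18, held 3 regions in Pcdhb22 and Pcdhga7. The non-clustered genes Pcdh1, Pcdh7, Pcdh8, Pcdh9, Pcdh11x and Pcdh15 held the other 27.

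Whole-genome methylation had been measured in 3 CUMS and 3 Ctrl samples. CUMS rats had undergone chronic unpredictable mild stress for 8 weeks, with a stressor such as restraint, food and water deprivation, cage tilt, wet bedding, cold-water swimming or continuous light applied each day, and Ctrl rats had been left in their home cages. Per the study's methods all were male Sprague-Dawley rats, 6 weeks old at purchase, and both groups passed through the same dissociation and sorting of CD45-/CD31+ cells. The tables give 1 level per region for CUMS and 1 for Ctrl, each pooled by the authors over the samples. A region came without values for single rats, read depth or a p-value, so the replicate error is unknown and every comparison here describes 2 pooled values.

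Methylation was read in 3 cytosine contexts, CG, CHG and CHH, where H is any base other than G. In mammals most methylation sits in the CG context, and non-CG methylation is best known from neurons and pluripotent cells. Clustered protocadherin genes are built from many alternative first exons, each with its own promoter, that splice to shared constant exons. In neurons, promoter methylation and binding of CTCF with cohesin at a conserved promoter element decide which isoform a cell makes, and the resulting set of surface proteins serves self-recognition. Non-clustered protocadherins include the delta-1 and delta-2 groups, which differ in their cytoplasmic motifs and mediate homophilic adhesion. Pcdh12 is the member known from endothelial junctions. Neither it nor any C-type isoform (Pcdhac1, Pcdhac2, Pcdhgc3, Pcdhgc4, Pcdhgc5) had a region under its symbol, although only 2 of these 5 C-type symbols occur in the RefSeq gene table. A region in a shared exon may be annotated under the symbol of another isoform.

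Methylation was higher in CUMS than in Ctrl (hypermethylated) in 26 of the 30 protocadherin regions, or 86.7% (exact binomial 95% interval 69.3% to 96.2%, which treats regions as independent and covers counting error only). Among all 24862 annotated regions the share was 75.3%, and among those annotated to any gene it was 78.1%, both inside that interval. All 4 CG regions were hypermethylated, against 80.0% of all CG regions and 87.7% of the CG regions annotated to any gene. In the CHG context 9 of 10 regions were hypermethylated, against 68.6% of all CHG regions. In the CHH context 13 of 16 were, against 78.5% of all CHH regions. The 3 clustered regions were all hypermethylated, as were 23 of the 27 non-clustered ones (85.2%), and with 3 regions the exact interval for the clustered genes ran from 29.2% to 100%. The protocadherin regions and the whole list were thus both mostly hypermethylated, and the wide interval cannot tell their shares apart.

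A difference of at least 10 percentage points was found in 12 of the 30 regions (40.0%), all hypermethylated, against 31.1% of all annotated regions. These 12 were the 4 CG regions, where the background was 76.1%, 1 of 10 CHG regions, where it was 3.11%, and 7 of 16 CHH regions, where it was 30.0%. The median absolute difference was 15.4 points in CG, 3.34 points in CHG and 8.66 points in CHH, beside 15.6, 4.05 and 7.36 points over all annotated regions of these contexts. The protocadherin regions therefore had differences of ordinary size for their contexts.

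**Figure D1:**
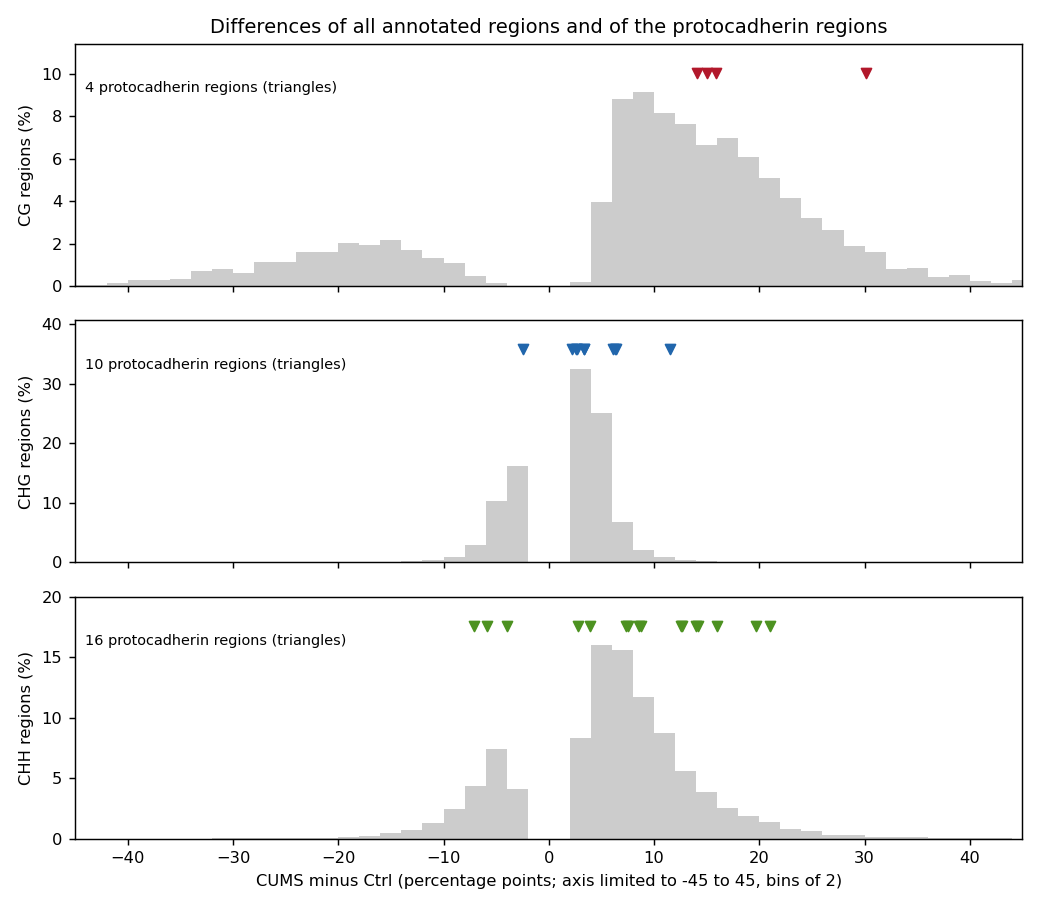
Differences in methylation level (CUMS minus Ctrl, percentage points) of all annotated regions (grey bars, percent of regions per bin of 2 points, axis limited to 45 points either way) and of the protocadherin regions (triangles), by cytosine context. The 4 CG triangles lie between 14.0 and 30.2 points, the 10 CHG triangles between -2.46 and 11.6, and the 16 CHH triangles between -7.14 and 21.0, all within the range of the grey bars.

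Promoter sequence differed between the genes described here, and a pair of promoters is shown for that reason. The RefSeq promoter table of the GRCr8 assembly, which spans 250 bases before to 50 after each gene's start, matched 34 clustered genes (35 promoters) and 11 non-clustered genes. The clustered promoters held a median of 6 CG dinucleotides (range 1 to 28), the non-clustered ones a median of 10 (range 5 to 33) and all 33469 promoters a median of 7. Pcdh1 had the most with 33, and Pcdh9 had 5. The letters CGCT, the core of the conserved element of clustered promoters, were found on either strand in 28 of 35 clustered promoters (80.0%), in 9 of 11 non-clustered promoters (81.8%) and in 60.9% of all promoters. The 250 bases before the start of Pcdh7, a gene with an annotated promoter region, and of Pcdh9, a gene with none, are given 5′ to 3′ with CG dinucleotides in capitals (GRCr8, minus strand, chr14:57113523-57113772 with 7 CG and chr15:76643953-76644202 with 4 CG). They come from another assembly than the regions and were not placed relative to them.
Pcdh7: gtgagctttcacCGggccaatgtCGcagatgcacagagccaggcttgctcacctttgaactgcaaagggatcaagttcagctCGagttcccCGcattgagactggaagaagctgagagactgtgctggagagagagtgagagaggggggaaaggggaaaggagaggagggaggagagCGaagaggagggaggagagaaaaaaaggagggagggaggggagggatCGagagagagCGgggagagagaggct
Pcdh9: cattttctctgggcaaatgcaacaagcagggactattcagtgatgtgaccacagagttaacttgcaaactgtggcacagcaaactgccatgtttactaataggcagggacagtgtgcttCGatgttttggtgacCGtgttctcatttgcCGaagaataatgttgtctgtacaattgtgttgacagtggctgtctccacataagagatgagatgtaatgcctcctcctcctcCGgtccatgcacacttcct

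In the clustered locus, Pcdhga7 carried the only CG region. This gene belongs to the gamma-A isoforms, and its gene model (ENSRNOG00000063070) covered both of its regions. The CG region (chr18:29579291-29579400, mRatBN7.2, 110 bp with 23 cytosines counted on both strands) lay in a CpG island and was annotated to an exon, an intron and a 5′ untranslated region. It was methylated at 27.5% in CUMS and 13.4% in Ctrl and differed by 14.0 points. Hypermethylated CG regions in CpG islands, of which there were 2991, had medians of 17.9% and 6.28% and a median difference of 11.4 points. Pcdhga7 ranked 231 among these by its Ctrl level and 1059 by its difference, so both pooled levels were above the island medians. The CHG region of Pcdhga7 (chr18:29649293-29649589, 297 bp, 49 cytosines, exon and intron) lay 69.9 kb further on, outside any island. It read 6.70% in CUMS and 0.574% in Ctrl, and ranked 921 of 6185 hypermethylated CHG regions by its difference of 6.13 points. Whether it lies in an exon shared with other gamma isoforms was not tested. A CHH region of the unreduced list overlapped this CHG region with 5.23% in CUMS and 0.491% in Ctrl, so both non-CG contexts were higher in CUMS at that place. These overlapping regions are not independent observations.

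Pcdhb22 (ENSRNOG00000020028), a beta isoform gene, held 1 CHG region in an exon (chr18:29224796-29224860, 65 bp, 9 cytosines). It read 2.65% in CUMS and 0.0144% in Ctrl, and its difference of 2.64 points ranked 5564 of 6185, near the low end of the list. Pcdhga7 and Pcdhb22 were the 2 genes with a region among 38 clustered protein-coding genes that the RefSeq table lists by symbol (1 Pcdha, 22 Pcdhb and 15 Pcdhg genes). Among 12 non-clustered protein-coding Pcdh genes 6 had a region under their symbol. Pcdh19 is counted without one, although a gene model described as protocadherin 19 has regions but no symbol. Among 20978 protein-coding RefSeq symbols other than LOC names 5999 had a region (28.6%), a share not matched for gene length. The 815 kb between a region of the neighbour Hars2 and the Pcdhb22 region hold, by RefSeq gene order, the Pcdha gene and most Pcdhb genes. No region of the reduced list lay there, and the unreduced list had 29 CHH regions in it, 22 of them hypermethylated, with a median absolute difference of 2.45 points and a largest one of 6.85 points.

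Regions that the annotation gave to no gene were also present between the Pcdhb22 region and the last Pcdhga7 region, a span of 424.8 kb. The unreduced list had 20 regions wholly inside that span, 14 hypermethylated and 6 lower in CUMS (hypomethylated). This was 70.0% hypermethylated, beside 65.3% of all 160692 regions of that list. The CHH region that overlapped the CHG region of Pcdhga7 crossed the end of the span and was not counted. The 20 regions comprised 1 CG, 3 CHG and 16 CHH regions. A single further region reached 10 points: a CHH region (chr18:29472437-29472722, 141 cytosines) with 16.3% in CUMS and 0.215% in Ctrl. A CHG region at chr18:29297283-29297399 went the other way, with 0.0271% in CUMS and 3.27% in Ctrl. The locus had 4.71 regions per 100 kb, beside 5.96 over chromosomes 1 to 20.

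**Figure D2:**
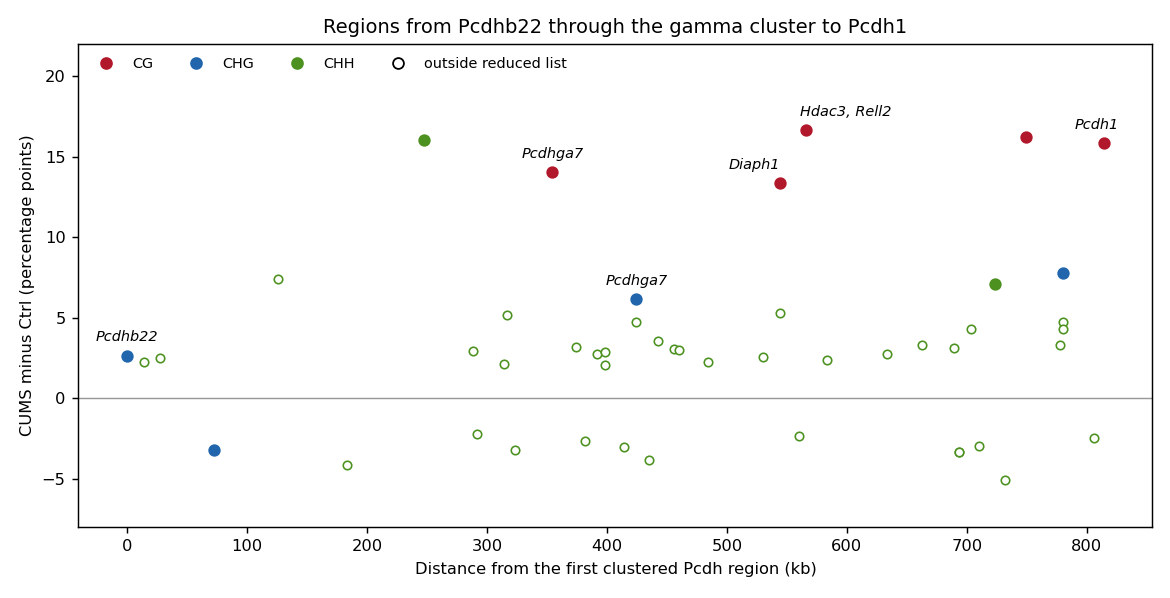
Difference in methylation level (CUMS minus Ctrl, percentage points) of every region from Pcdhb22 to Pcdh1 against the distance in kb from the Pcdhb22 region, colored by context, with open circles for CHH regions outside the reduced list. The 5 CG regions lie between 13.4 and 16.6 points, and most open circles lie within 5 points of 0.

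Pcdh1 lies on the same chromosome beyond the gamma genes, separated from Pcdhgc5 in the RefSeq order by Diaph1, Hdac3, Rell2, Fchsd1 and Arap3. It encodes a delta-1 protocadherin of epithelial adhesion that New World hantaviruses use as a receptor. Its single region (ENSRNOG00000060410, chr18:30038941-30039317) was a CG region of 377 bp with 94 cytosines in a CpG island, annotated to promoter, 5′ untranslated region, exon and intron. CUMS cells read 24.9% and Ctrl cells 9.04%, a gap of 15.8 points. Among the 2991 hypermethylated island CG regions it ranked 846 by difference, 528 by Ctrl level and 212 by number of cytosines, where the median region had 33. Pcdh1 was thus a long island region with a difference somewhat above the island median. From the clustered locus to Pcdh1, 814.5 kb, there were 5 CG regions, all hypermethylated. Besides those of Pcdhga7 and Pcdh1 they were in Diaph1, an actin-nucleating formin (18.4% in CUMS and 5.05% in Ctrl), in Hdac3 with Rell2, a histone deacetylase gene and its neighbour (24.4% and 7.72%), and in a CpG island assigned to no gene (chr18:29974344-29974535, 22.7% and 6.50%). Of CpG island CG regions in the whole list, 97.0% were hypermethylated, so a run of 5 in 1 direction was the usual state of such regions.

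The other delta-1 genes, Pcdh7, Pcdh9 and Pcdh11x, held 15 regions, most of them in introns. Pcdh7 (ENSRNOG00000063828 and ENSRNOG00000012367), an adhesion gene of brain and heart, had 4 regions that differed in kind. Its CG region (chr14:52903463-52903588, 126 bp, 16 cytosines) was annotated to the promoter of the first gene model and an intron of the second, at the shelf of a CpG island. It read 21.9% in CUMS and 6.84% in Ctrl, differed by 15.0 points and ranked 485 of 1453 hypermethylated promoter CG regions, whose median difference was 11.9 points. An intronic CHH region (chr14:52599652-52599962, 311 bp, 149 cytosines) had the largest non-CG difference of the 30 regions, with 21.4% in CUMS, 0.382% in Ctrl and 21.0 points (rank 364 of 7850 hypermethylated CHH regions). Only 23.4 kb away, another intronic CHH region (chr14:52575991-52576246) had the opposite direction, 0.0474% in CUMS and 5.92% in Ctrl. An exonic CHG region in a CpG island (chr14:52899168-52899303, 25 cytosines) read 6.56% and 0.304%, and a CHH region of the unreduced list overlapping it read 5.34% and 0.0829%.

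Pcdh9 (ENSRNOG00000038068), a long gene expressed in brain, had 7 regions, all intronic and outside CpG islands and their flanks (open sea). Its 6 CHH regions were all hypermethylated, with CUMS levels from 2.86% to 14.2% and Ctrl levels from 0.0249% to 0.597%. The largest difference, 14.0 points, was at chr15:69382912-69383257 (346 bp, 183 cytosines, in an ERVL-MaLR retroviral repeat), where CUMS was 14.2% and Ctrl 0.174%. A CHG region in a LINE-1 element (chr15:69498867-69498938, 72 bp, 7 cytosines) was lower in CUMS, at 0.534% against 3.00%. Pcdh9 had no CG region, so its entry in the list rested on non-CG cytosines alone.

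Pcdh11x (ENSRNOG00000069840), the X-linked delta-1 gene, had 4 regions, all intronic and hypermethylated. Its CG region (chrX:86554813-86554908, 96 bp, 7 cytosines) lay in a LINE-1 element in the open sea and read 84.7% in CUMS and 54.5% in Ctrl. This difference of 30.2 points was the largest among the 30 regions and ranked 316 of 4682 hypermethylated CG regions. Hypermethylated CG regions in open-sea LINE-1 elements, 422 in all, had medians of 84.5% and 61.5% and a median difference of 19.6 points, and Pcdh11x ranked 79 of them. Its other regions were small in level: CHG regions with 2.63% and 6.76% in CUMS and 0.0199% and 0.402% in Ctrl, and a CHH region with 3.98% and 0.0189%. Of the 4 CG regions among the 30, this was the only one that was mostly methylated in both groups; the other 3 read 21.9% to 27.5% in CUMS and 6.84% to 13.4% in Ctrl.

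Pcdh8 was the only delta-2 gene with a region under its symbol. It encodes an activity-regulated synaptic protocadherin, also called arcadlin. Its CHG region (ENSRNOG00000013101, chr15:55205504-55205587, 84 bp, 15 cytosines, intron, CpG island) read 3.47% in CUMS and 0.169% in Ctrl, which ranked 4542 of 6185. Pcdh10, Pcdh17 and Pcdh18 of the same group had no region under their symbols, nor did Pcdh12 and Pcdh20.

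Pcdh15 (ENSRNOG00000000606), a component of the tip links of inner-ear hair cells, had the most regions, 10, all intronic and in the open sea. Of 7347 genes with a region, 44 had as many or more, and the median gene had 1. There were 7 CHH and 3 CHG regions and no CG region, and 8 of the 10 were hypermethylated. The largest difference, 19.6 points, was at chr20:14022021-14022321 (301 bp, 149 cytosines), with 19.9% in CUMS and 0.265% in Ctrl (rank 469 of 7850). CHH regions at chr20:14875861-14876122 (16.0% in CUMS and 0.0269% in Ctrl, in an ERVK repeat), chr20:14371000-14371262 (13.1% and 0.447%) and chr20:14338118-14338380 (8.76% and 0.213%) had the same direction. In a further place 2 contexts were listed on overlapping bases. The CHH region chr20:14496884-14497317 read 14.6% and 0.376%, and the CHG region chr20:14496882-14496970 read 12.4% and 0.815%. With 11.6 points that CHG region ranked 108 of 6185 and was the only CHG region of the 30 past 10 points.

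The opposite direction was found in Pcdh15 at 2 CHH regions. One lay in a LINE-1 element at chr20:14484161-14484432, where CUMS was 0.192% and Ctrl 7.34%, only 12.4 kb before the overlapping pair with higher levels in CUMS. The other was at chr20:15445221-15445472, with 0.397% and 4.32%. The remaining CHG regions of Pcdh15, with 11 and 9 cytosines, were listed at 3.39% and 2.21% in CUMS. Their listed Ctrl levels were 0.0171% and 0.0116%, too low to be taken as exact in so few cytosines. Directions within Pcdh15 and Pcdh7 were therefore mixed at short distance.

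**Figure D3:**
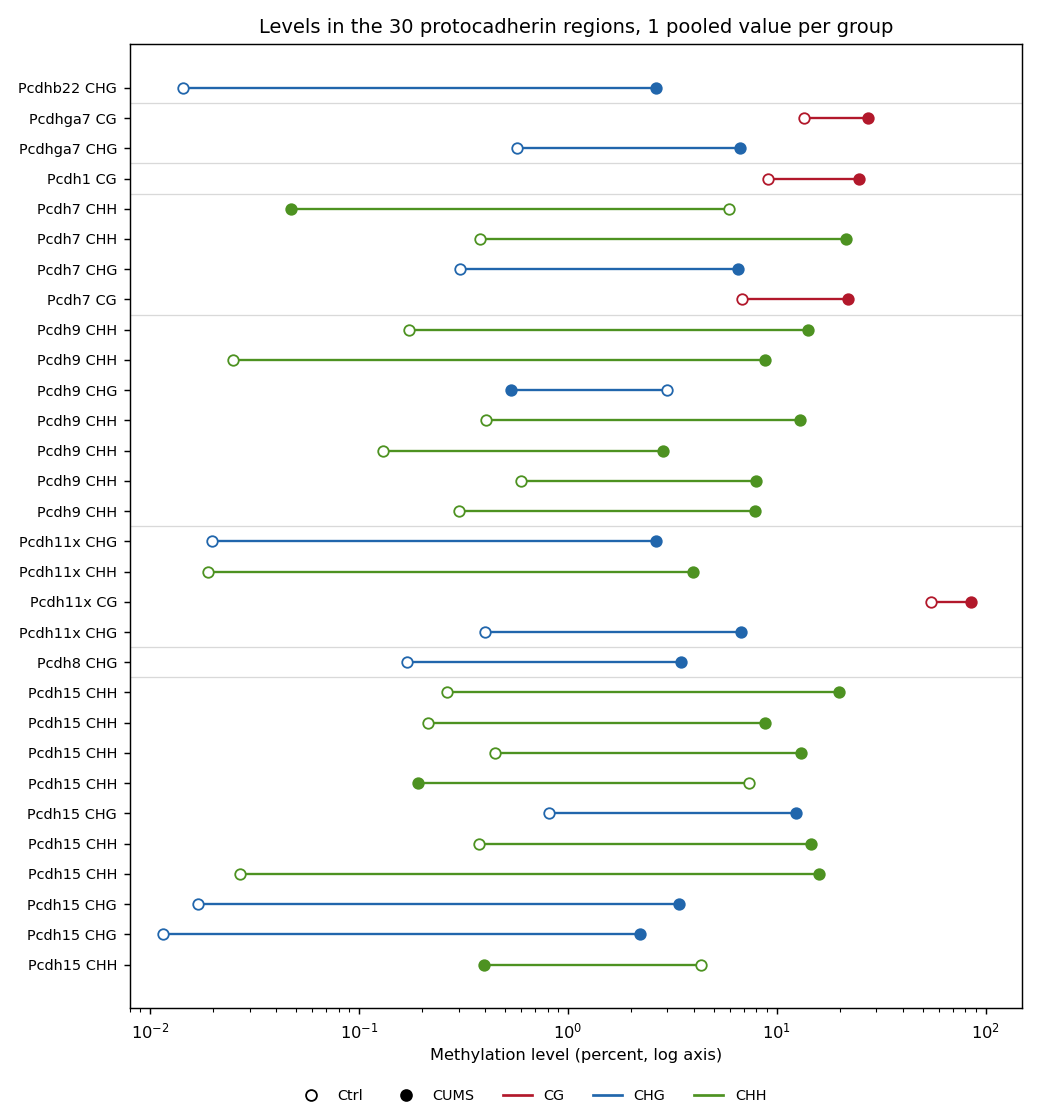
Methylation level in percent (log axis) of each of the 30 protocadherin regions in Ctrl (open circles) and CUMS (filled circles), 1 pooled value per group, ordered by gene and position and colored by context. In CHG and CHH regions the lower of the levels stays below 1%, and Pcdh11x has the only CG region above 50% in both groups.

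What the non-CG regions shared was a very low level in 1 group. In the 13 hypermethylated CHH regions the median was 12.9% in CUMS and 0.265% in Ctrl, with no Ctrl level above 0.597%. Over all 7850 hypermethylated CHH regions the medians were 8.29% and 0.207%. In the 4 hypomethylated protocadherin regions, 3 CHH and 1 CHG, CUMS read 0.0474% to 0.534% and Ctrl 3.00% to 7.34%. All 16 CHH regions were intronic and in the open sea. Of all 9996 annotated CHH regions 94.8% lay in the open sea, whether in introns or not. Among 3312 CHH regions of all genes with an intron and no other gene feature, in the open sea, 77.4% were hypermethylated, 29.5% differed by at least 10 points and the median absolute difference was 7.31 points.

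Repeat and island classes were also compared. A repeat overlapped 10 of the 30 regions (33.3%) beside 47.1% of all annotated regions, and in CHH 7 of 16 (43.8%) beside 51.9%. A CpG island class was given to 4 of 30 (13.3%) beside 13.9%, and open sea to 25 of 30 (83.3%) beside 80.7%. The CHH regions had a median length of 267.5 bp and 44.6 cytosines per 100 bp, beside 274 bp and 44.6 over all CHH regions.

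The reduced list keeps every CG and CHG region but only the top CHH regions by areaStat (the summed DSS statistic of a region, taken without its sign), so its edge sets which CHH regions were annotated. The smallest value in the list was 759.66 and the largest outside 759.631. The protocadherin CHH region nearest the edge had 789.964. The nearest one left out within the spans of these genes had 746.044, and it is the CHH region that overlapped the CHG region of Pcdhga7. Regions of the unreduced list were counted where they lay wholly within the span from the first to the last annotated region. Regions crossing an end of a span, such as a CHH region at chrX:86628979-86629232 in Pcdh11x, were left out. Pcdh15 had 73 (54 hypermethylated), Pcdh9 39 (26), Pcdh11x 38 (27) and Pcdh7 22 (17). Per 100 kb this was 5.13, 5.67, 6.94 and 6.72 regions, beside 5.96 on chromosomes 1 to 20 and 8.34 on chromosome X. Pcdh15 thus had many regions over a span of 1423 kb, at a density no higher than that of the autosomes.

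**Figure D4:**
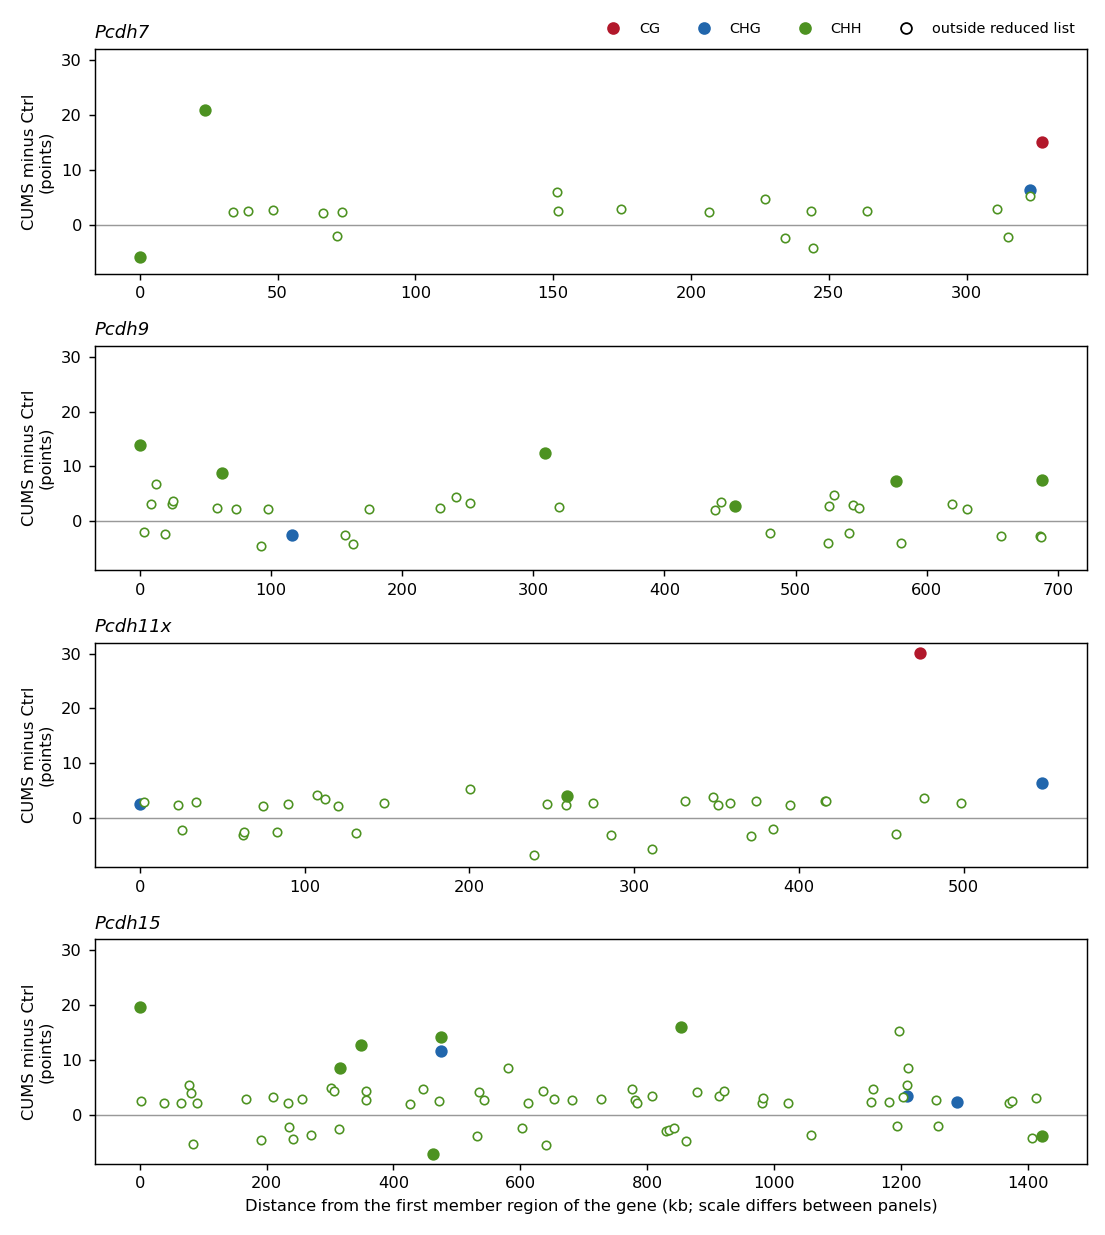
Difference in methylation level (CUMS minus Ctrl, percentage points) of every region wholly inside the spans of Pcdh7, Pcdh9, Pcdh11x and Pcdh15. It is plotted against the distance in kb from the first region of each gene, colored by context. CHH regions outside the reduced list are open circles. Open circles lie on both sides of 0 in all 4 genes, and the one farthest from 0 is in Pcdh15 at 15.3 points.

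Genes that act on or beside protocadherins were counted from lists of known partners. The list of cluster regulation held 18 genes: CTCF, Znf143, cohesin and its regulators, and factors of DNA methylation and chromatin. Of these genes 9 had a region, 10 regions in all, and 9 of those regions were hypermethylated. Tet3, a methylcytosine dioxygenase, had a CG region at its start site with 41.0% in CUMS and 12.9% in Ctrl. The cohesin subunit genes Stag1 (31.2% and 9.02%) and Stag2 (29.5% and 8.48%) had the same direction. Nipbl, the cohesin loader, was the exception with 67.0% and 85.0%. Of 11 cytoplasmic partners, kinases and actin regulators that protocadherin tails bind, 9 had a region, 12 of 15 regions being hypermethylated; the focal adhesion kinase gene Ptk2 had a CG region at its start site with 26.9% in CUMS and 5.51% in Ctrl. Of 10 large atypical cadherins 9 had a region, 16 of 20 being hypermethylated, among them a CG region of Celsr1 with 51.4% and 25.7%. A CHG region of Celsr1 went the other way, with 0.0293% in CUMS and 4.55% in Ctrl. Of 22 neighbours of the clustered locus 6 had a region, 4 of 5 being hypermethylated. This list includes Pcdh12 and Pcdh1, and the Pcdh1 region described above is counted again in the delta-1 list. The delta-1 list had regions in 4 of 4 genes (14 of 16 hypermethylated), the delta-2 list in 1 of 5 by symbol (a model described as protocadherin 19 has regions but no symbol), and the remaining group of Pcdh12, Pcdh15 and Pcdh20 in 1 of 3. Beside these counts stand the 28.6% of protein-coding symbols with a region and the 75.3% of all annotated regions that were hypermethylated. The hypermethylated share was 78.1% for regions annotated to any gene and 97.0% for CG regions in CpG islands. Of the 10 regions of cluster regulators 7 were CG regions, 6 of them in CpG islands.

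The sort could not be checked from region lists, which hold no expression and no unchanged sites. Of 6 endothelial marker genes 2 had a region, Pecam1 and Tek, with 1 in each direction, and regions were also present in 2 of 3 neuronal (6 regions, all hypermethylated), 1 of 3 astrocyte (1 region, hypermethylated), 1 of 3 microglial (1, hypermethylated), 1 of 3 pericyte (1, hypermethylated) and 2 of 3 oligodendrocyte marker genes (2, both hypomethylated, with Mog at 49.1% in CUMS and 81.4% in Ctrl). The same backgrounds hold for these lists: 28.6% of symbols with a region, and 75.3% of all regions and 78.1% of those annotated to any gene hypermethylated. Their part in the protocadherin values was not tested.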

How the data were processed

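DNA of CD45-/CD31+ sorted hippocampal cells from 3 CUMS and 3 Ctrl rats was treated enzymatically with TET2 and APOBEC3A before sequencing, so incomplete deamination raises a measured level. Per the submitters' processing notes, reads were handled with FastQC 0.11.3, fastp 0.20.0, Bismark 0.16.3 and Bowtie2 on mRatBN7.2. Per the study's methods, DMRs were called with DSS. The authors deposited methylation levels as a fraction, 1 pooled value per group and region, given here in percent, and areaStat as a score, used only to rank regions. Depth and replicate values were not used here, so no interval or test of a level was possible. Whether levels far below 1% are shares of reads or model estimates was not checked. The smallest listed difference was 2.00 points, although the methods state a limit of 10 points, and regions were kept as listed.

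The annotation table was joined to the levels with Python 3.11.15 and pandas 2.3.3, and repeated annotation lines were collapsed to 1 region. Regions overlapping by at least 1 bp counted as overlapping. Shares carry exact binomial intervals (scipy 1.17.1). Functions were tested on simulated data. A RefSeq table of GRCr8 served only for names, counts, gene order and promoter sequences. The gene-body profile table was not used. Every clustered CG region, every clustered region of at least 10 points and every non-clustered gene with a region were named, with its CG regions and its largest difference. Some genes of the lists are not reported here by name. Members and lists were chosen with earlier results of these data known. Alternatives were a minimum of 10 points or of 10 cytosines, joining within 1 kb, CG alone, removal of shared assignments or of CpG islands, weighting by cytosines and a locus extended by 50 kb.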

Additional observations from a re-analysis of the deposited data

Results flagged for a closer look

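A signal lay in a gene that the selection by symbol left out. The annotation described ENSRNOG00000003929 on chromosome X as protocadherin 19, a delta-2 gene in which mutations cause epilepsy, but gave it no symbol. Its CG region chrX:96872534-96872681 (148 bp, 16 cytosines, exon and 5′ untranslated region, CpG island) read 44.0% in CUMS and 8.45% in Ctrl, and its 35.6 points ranked 140 of 4682 hypermethylated CG regions and exceeded those of every protocadherin region described above. A neighbouring CG region (chrX:96872260-96872384) read 27.5% and 9.84%, and an intronic CHG region (chrX:96793821-96793976) read 4.87% and 0.0176%. These are single pooled values with no replicate error.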

How the results depend on the processing

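No paired analysis was possible because each group came as 1 pooled value without values for single rats, so leaving out a replicate was not possible either. Of 31 alternative settings 26 stayed within the counting interval of the main share or within 1.5 times the main median, and 0 reversed a direction. Many of the 26 had no room to move, so the tally says little about stability. The 3 clustered regions all had the same direction, and the clustered CG median rested on 1 region. No protocadherin region was also assigned to another gene, and joining within 1 kb left the counts of regions unchanged. The hypermethylated share of the protocadherin regions moved from 86.7% to 100% with a minimum of 10 points (12 regions) and with CG regions only (4 regions). The non-clustered share moved from 85.2% to 100% under the same settings (11 and 3 regions). The share of the clustered locus in the unreduced list moved from 70.0% to 100% with a minimum of 10 points (2 regions). These settings leave few regions. The median CG difference of the non-clustered genes was 15.8 points and ranged from 15.4 to 22.6 points, the highest without CpG islands. The clustered genes had no CG region left without CpG islands. The study's methods state a sequencing coverage for the samples, but the depth at each region is unknown. This limits every level, most of all those below 1%.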
